A study of Mus musculus with 11 samples.

Results

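The rare lines were 17 low-abundance members of a pool of barcoded mouse cell lines from pancreatic ductal adenocarcinoma (PDAC), recovered from metastasis-bearing lungs. A line is here the set of barcodes that share their first 4 bases, the identifier, and that those bases mark a cell line was inferred from the order of parts in the amplified cassette. The members were selected on measured read counts. Of 243 identifiers seen, 223 ranked 21 or lower by total reads over all libraries, and 18 of these had at least 5 barcodes of 10 or more reads in 1 or more libraries. Evenness of size was measured only in lines with at least 100 barcode listings of 2 or more reads, which the lowest members, TGAT to GCAT, did not reach. The line GATC was left out because its barcodes were the most even among those of the 18 so measured. Its 99th percentile was 3.33 times the median, against 13.8 or more for the members so measured. The 17 lines held 8706 of 135360 barcode listings (6.43%), 7329 distinct barcodes, and 1308671 of 118983303 reads (1.10%). Just outside the rank limit lay CGTA with 263890 reads, and just inside it AAGG with 226906. The lowest member had 6 barcodes of 10 or more reads in its best library, and the highest line that failed had 4. Of the members, 14 passed the rule in both groups, TGAG passed in vehicle libraries alone, and CAGA and GCAT passed in 6OHDA libraries alone, so a group difference of these 3 is in part built into their choice. They stayed in the fits, which ran over all lines, but their values are given as a description and the counts of tested lines below cover the other 14.

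The pool had been injected into a vein of syngeneic 129/Bl6 F1 mice, and genomic DNA of the lungs was analysed 3 weeks later. In the vehicle group (6 libraries) the mice had received vehicle before injection, and in the 6OHDA group (5 libraries) they had received 6-hydroxydopamine (6-OHDA). The animals in both groups carried the same pool, and the labels give no age, sex or dose. Whether every library was made from a different animal is not stated, and the p-values therefore reflect only the spread between these libraries, which may be technical.

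The chemical 6-OHDA is taken up by noradrenergic nerve endings and destroys them, which removes much of the sympathetic innervation of peripheral tissue. Sympathetic nerves release noradrenaline and neuropeptide Y (NPY), and the series addresses whether they restrain metastatic seeding of the lung through the NPY receptor NPY1R. In a barcoded pool, cells that descend from a tagged cell carry the same barcode, so the number of barcodes of a line reads how many tagged clones grew in the lung, and the reads of a barcode read how large its clone was relative to the rest of the library. Lines of a pool commonly differ in both, since settling in the lung and growing there are separate steps.

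A barcode had 20 bases, made of the 4-base identifier and 16 more, of which 12 were random and 4 were a fixed G. The sequences below are the largest barcode of each line described by name, given because the values of several lines turned on it. Capitals mark the identifier.
CACT largest: CACTgtaggaggcggggacg
TGAC largest: TGACgaagcacgcaggcgcg
CAAC largest: CAACcgggttggtgtgttgg
ACAC largest: ACACcaagtgaggacgctgg
TGAT largest: TGATgctgggggttggcgtg
AAGG largest: AAGGttggtgcgaatgcgag
ATGC largest: ATGCtttgtgcgtgtgttcg
TTGG largest: TTGGcatgagtgggcgtgtg
CAGA largest: CAGAttcgccgggtggccgg

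A second set of sequences shows the barcodes of rare lines that were found as colonies in the most libraries, with capitals again marking the identifier. A colony is a barcode with at least 10 reads after each library had been thinned at random to the smallest read total, 6436469, which sets the minimum size at 1.55 reads per 1000000 (RPM).
GCTA, 11 libraries: GCTAtgggtgtgcggggggg
ATGC, 10 libraries: ATGCagggccagcacgtggg
ATGC, 8 libraries: ATGCtgagttagggcgcgtg
ATGC, 7 libraries: ATGCggtgagtggtaggggg
CCAA, 7 libraries: CCAAtaggtgtgtccgacgg

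The identifiers of the rare lines mostly obeyed the pattern of the abundant ones. All 20 lines above the rank limit had exactly 2 G or C bases among their 4 and differed from each other at 2 or more positions. Of the rare lines, 15 of 17 (88.2%) had 2 G or C bases, compared with 96 of the 256 possible identifiers (37.5%) and with 56 of the 205 other identifiers seen (27.3%). Similarly, 14 of 17 (82.4%) stood at least 2 bases from each of the top 20, compared with 34.1% of the other identifiers seen. The 3 exceptions were TGAT, TGAA and TGAG, each 1 base from an abundant identifier, namely CGAT, GGAA and AGAG. These 3 and TGAC also differed from each other by 1 base, and TCAG from TGAG.

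A read error in the identifier would place a copy of an abundant barcode under another line with its last 16 bases intact. Such copies were rare among the deposited listings of the members. Of their 8706 listings, 13 shared their last 16 bases with a barcode of another line that had more reads in the same library. These 13 were 0.149% of the listings with 0.0294% of the reads, and 3 of the 13 had an identifier 1 base away. The largest of these listings held 225 reads. No listing of TGAT, TGAA or TGAG was among them. The listings are barcode clusters, and whether clustering had already merged such copies is not known. The check therefore cannot settle the origin of these 3 identifiers, which was not tested. In the top 20 lines the share was 0.0759% of listings, and in the other low-abundance identifiers it was 1.40% of listings with 7.48% of the reads. The random bases of the members' colony barcodes held 21.8% A, 18.6% C, 29.4% G and 30.2% T, and all 3916 of these barcodes carried the fixed G bases.

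The libraries held 6436469 to 15665492 reads, and over all barcodes the highest correlation of reads between any pair of libraries was 0.123. Over the 7329 rare-line barcodes it was 0.556, between vehicle 4 and 6OHDA 2, which shared the largest CACT barcode. No molecular identifiers marked single DNA molecules, so the intervals and floors below cover counting error only. A spike-in cell line was added before extraction, but no barcode was named as its own, so all sizes are relative to the library.

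The rare lines together gave 4645 colonies, 6.79% of the 68418 colonies of all lines. Their median size was 6.37 RPM, compared with 7.77 RPM in the lines ranked 11 to 20 and 38.8 RPM in the lines ranked 1 to 10. Of the colonies of rare lines, 49.0% held fewer than 40 thinned reads, against 18.2% in the first 10 lines. Within a library, the median colony of all other lines was 2.70 to 5.55 times that of the rare lines, with a median ratio of 3.74, and it was larger in 11 of 11 libraries. Since low total reads chose these lines, the small sizes are a description of them.

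Lines of nearly equal abundance were built from colonies of very different number and size. AAGG and CAAC held 226906 and 214007 reads, yet AAGG gave 1721 colonies with a median of 4.82 RPM and CAAC gave 266 with a median of 20.5 RPM. AAGG had 2.43 to 9.59 times as many colonies as CAAC in a library (median 6.45), and its colonies were smaller in 11 of 11 libraries. The geometric mean size of CAAC colonies was 1.77 to 10.6 times that of AAGG colonies (median 3.83). The pair was taken because it held the most reads, and the rule itself asks for several barcodes of 10 or more reads, so these values describe the lines and carry no test.

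The other members lay between and around this pair. ATGC, with 105006 reads, gave 713 colonies with a median of 5.13 RPM. TGAC gave 277 colonies and GAAG 287, both with a median of 8.86 RPM, and ACAC gave 397 with the same median. CACT had 292 colonies with a median of 5.67 RPM, TCCA 192 with 14.1 RPM, CCAA 184 with 7.85 RPM and GCTA 118 with 9.40 RPM. The 7 lowest lines, TGAT to GCAT in order of reads, gave 15 to 43 colonies each over all 11 libraries. Among them the median size ran from 6.60 RPM in TTGG to 23.0 RPM in TGAG.

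The reads of a rare line in a library could come largely from a single clone. Among 123 pairs of a line and a library with at least 1000 reads, the largest barcode held a median of 33.5% of the line's reads. It held at least 50% in 31 pairs and at least 90% in 7. Of the 31 pairs, 19 were among 59 vehicle pairs and 12 among 64 6OHDA pairs, and the difference was not tested, because pairs of a library share its colony number.

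The highest share was that of TGAC in vehicle 1. Its largest barcode held 12457 of 12466 reads there, 99.9% (Wilson 95% interval 99.9 to 100), and TGAC was the most abundant rare line of that library with 1 colony. TTGG in vehicle 3 was alike, with 2861 of 2912 reads in its largest barcode (98.2%, 97.7 to 98.7). The largest TGAT barcode held 9352 of 12897 reads in 6OHDA 1 (72.5%, 71.7 to 73.3). All 3 barcodes were found in no other library.

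In 3 of the lines, AAGG, ATGC and TCCA, no library with at least 1000 reads had 50% of the line in a single barcode. The largest AAGG barcode held 3.36 to 37.7% of the line's reads and stayed below 50% in 11 of 11 libraries. Its highest barcode in RPM, in vehicle 5, held 2681 of 14375 reads (18.7%, 18.0 to 19.3). ATGC ran from 6.69 to 28.7% in 10 libraries with at least 1000 reads, and TCCA from 8.85 to 34.6% in 10. CAAC ran from 11.7 to 69.1%, highest in vehicle 1, and ACAC from 7.94 to 51.5%, highest in vehicle 5, each with 1 of 11 libraries at 50% or more. The barcode of CAAC that was largest in RPM, in vehicle 5, held 6481 of 16406 reads (39.5%, 38.8 to 40.3), and that of ACAC, in vehicle 4, held 10102 of 22688 (44.5%, 43.9 to 45.2). Other lines with many colonies had such libraries too. CACT, with 292 colonies, reached 91.0% and was at 50% or more in 3 of 8 libraries, and GAAG, with 287, reached 79.2% and was so in 3 of 11.

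Different rare lines led in different libraries. AAGG was the most abundant of them in 4 libraries, CAAC in 3, and CACT and TGAC in 2 each. The leading line held 41.3% of the rare-line reads in vehicle 5 (CAAC), 33.1% in 6OHDA 2 (CACT) and 27.9% in vehicle 1 (TGAC).

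Some barcodes of rare lines were found in several libraries. A barcode could recur where tagged cells had divided before injection, so a colony is a distinct barcode in a library and its number does not count seeded cells. Among the 4645 colonies, 1220 (26.3%) had a barcode that was a colony in 2 or more libraries, compared with 32.4% in the lines ranked 11 to 20 and 57.9% in the first 10. By barcode, 3425 were colonies in a single library, 368 in 2, 64 in 3 and 31 in 4. A further 14 were colonies in 5 libraries, 8 in 6 and 3 in 7, with 1 each in 8, 10 and 11. Recurring colonies had a median of 7.92 RPM, against 5.75 RPM for those seen once. Of the 491 recurring barcodes, 299 were in both groups, 149 in 6OHDA libraries alone and 43 in vehicle libraries alone, where the 6OHDA libraries also held more colonies.

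Recurrence differed widely between the rare lines. It was highest in GCTA, where 89.8% of 118 colonies were recurring and the whole line came down to 38 distinct barcodes. TGAA followed with 46.5% of 43 colonies, ATGC with 40.8% of 713 and CCAA with 38.0% of 184. It was 4.53% in ACAC, 5.26% in TTGG, and 0 of 15 in CAGA and 0 of 16 in GCAT.

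The GCTA barcode shown above was a colony in 11 of 11 libraries and held 49.9% of all GCTA reads. In the vehicle libraries it ran from 13 reads (2.02 RPM, vehicle 5) to 8428 reads (538 RPM, vehicle 3), and vehicle 4 had 7237 reads (540 RPM). In 6OHDA libraries 1 to 5 it had 5524, 1048, 1148, 2786 and 3018 reads, or 431, 142, 101, 291 and 196 RPM. The vehicle libraries thus spread on both sides of the 6OHDA libraries. Of 8 libraries with at least 1000 GCTA reads, this line had at least 50% in its largest barcode in 5. ATGC reached 10, 8 and 7 libraries with its 3 most widespread barcodes, but the largest ATGC barcode by size, with 3440 of 14786 reads in 6OHDA 4 (23.3%, 22.6 to 24.0), was a colony in 2 libraries.

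The pooled colony number of the rare lines was higher on average in 6OHDA libraries, with overlap. Their colonies numbered 81, 210, 623, 578, 90 and 144 in vehicle libraries 1 to 6, and 808, 387, 526, 455 and 743 in 6OHDA libraries 1 to 5. The means were 288 ± 247 (SD, n = 6) and 584 ± 183 (SD, n = 5). In the vehicle group, 4 libraries lay below every 6OHDA library, and vehicle 3 and 4, the most deeply sequenced of their group, lay within the 6OHDA range; the part of depth in this was not tested beyond the thinning. Fewer tagged cells that settled and fewer that grew past the minimum size cannot be told apart in these data.

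Relative to the rest of the pool the differences were smaller. Rare lines made up 4.01, 6.22, 7.83, 6.97, 4.58 and 4.89% of the colonies in vehicle 1 to 6, and 7.04, 6.09, 6.51, 8.18 and 7.15% in 6OHDA 1 to 5, with means of 5.75 ± 1.49% (SD, n = 6) and 7.0 ± 0.791% (SD, n = 5). Their share of reads was 0.838 ± 0.397% (SD, n = 6) in vehicle and 1.23 ± 0.317% (SD, n = 5) in 6OHDA, and the ranges, 0.555 to 1.44% and 0.890 to 1.59%, overlapped. The most deeply sequenced vehicle libraries were again the highest of their group on both shares. Between 9 and 16 of the 17 lines had a colony in a vehicle library, and between 15 and 17 in a 6OHDA library. These counts include CAGA, GCAT and TGAG, whose group difference is in part built into their choice.

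The pooled median colony size was lower on average in 6OHDA libraries, and so was that of all other lines. For the rare lines it was 14.8, 8.55, 7.15, 6.06, 12.4 and 13.0 RPM in vehicle 1 to 6, and 5.59, 6.68, 5.44, 6.84 and 5.75 RPM in 6OHDA 1 to 5. For all other lines the medians were 48.9 ± 22.7 RPM (SD, n = 6) and 20.6 ± 4.66 RPM (SD, n = 5). Sizes are shares of a library's reads, so they are not independent of the number of colonies in it. The part of colony number in the lower medians was not tested. The largest rare-line barcode held 5.45 to 27.9% of the rare-line reads in vehicle, and 4.59, 15.3, 3.67, 5.16 and 3.35% in 6OHDA 1 to 5. These pooled values carry no test, since the lines were chosen with earlier results known.

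Colony number was then tested line by line with edgeR's quasi-likelihood test over all 38 lines with at least 5 colonies in a library, the 17 rare lines among them. The 14 rare lines that passed the rule in both groups had higher estimates in 6OHDA in 14 of 14 cases, against 36 of 38 lines in all (94.7%). None passed an adjusted p of 0.05, as for all lines tested (0 of 38, 0%). At an unadjusted p under 0.05 there was 1 of the 14, TTGG, against 8 of all 38 (21.1%). DESeq2 called 0 of the 14 and 1 of 38, with 2 of the 14 (CAAC and TTGG) and 4 of 38 at an unadjusted p under 0.05. The median log2 difference was 1.25 in the 14 lines and 1.08 in all lines tested. When colonies were scaled to those of all lines (TMM, edgeR's scaling between libraries), 10 of the 14 were higher and 4 lower, against 21 and 17 of all lines.

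Neither AAGG nor CAAC passed the test of colony number. AAGG had 17 colonies at the lowest, a median of 63.5 and 259 at the highest in vehicle, and 254, 152, 176, 210 and 251 in 6OHDA 1 to 5. Its log2 difference was 0.88 (SE 0.59; edgeR adjusted p = 0.217), higher than the vehicle mean in 5 of 5 6OHDA libraries, but -0.07 when scaled to all colonies. CAAC had 6, 10.5 and 27 colonies (lowest, median, highest) in vehicle, and 57, 17, 34, 26 and 45 in 6OHDA. In 3 of 5 6OHDA libraries it exceeded every vehicle library, and the log2 difference was 1.30 (SE 0.69; edgeR adjusted p = 0.193). Scaled to all colonies, the CAAC difference was 0.09.

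TGAC, CACT and ACAC had wide spreads in both groups. TGAC had 1, 11 and 40 colonies (lowest, median, highest) in vehicle, and 48, 14, 31, 24 and 66 in 6OHDA, with a log2 difference of 1.22 (SE 0.74; edgeR adjusted p = 0.193). CACT had 4, 9.5 and 39 in vehicle, and 66, 40, 32, 10 and 36 in 6OHDA, with a log2 difference of 1.03 (SE 0.71; edgeR adjusted p = 0.221). ACAC had 3, 14.0 and 50 in vehicle, and 82, 18, 61, 20 and 85 in 6OHDA, with a log2 difference of 1.28 (SE 0.71; edgeR adjusted p = 0.193). In each of these lines the groups overlapped, with vehicle 3 and 4 above 6OHDA 4. Scaled to all colonies, the log2 differences were 0.19 for TGAC, 0.01 for CACT and 0.22 for ACAC.

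ATGC and TGAT had the smallest differences in colony number. ATGC had 14, 42.0 and 91 colonies (lowest, median, highest) in vehicle, and 112, 79, 73, 81 and 70 in 6OHDA, with a log2 difference of 0.74 (SE 0.62; edgeR adjusted p = 0.263). TGAT had 0, 1.5 and 7 in vehicle, and 7, 2, 4, 4 and 2 in 6OHDA, with a log2 difference of 0.68 (SE 1.0; edgeR adjusted p = 0.504). When scaled to all colonies, the log2 difference was -0.40 for ATGC and -0.32 for TGAT, so their direction depended on the scaling.

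TTGG had the largest difference among the lines that entered through both groups. It had 0, 1, 2, 3, 0 and 1 colonies in vehicle 1 to 6, and 7, 3, 4, 2 and 15 in 6OHDA 1 to 5. The log2 difference was 2.29 (SE 1.0; edgeR adjusted p = 0.193), and 1.25 when scaled to all colonies. In 3 of 5 6OHDA libraries it exceeded every vehicle library, and 6OHDA 2 and 4 lay within the vehicle range.

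CAGA had no colony in 6 of 6 vehicle libraries, and 0, 0, 3, 3 and 9 in 6OHDA 1 to 5. The vehicle libraries held 1, 0, 0, 0, 2 and 1 CAGA reads, and the 6OHDA libraries 7, 1, 1029, 374 and 4720. In 5 of 5 6OHDA libraries and 3 of 6 vehicle libraries at least 1 read was found, and the 3 reads that a count of 0 allows equal 0.192 to 0.466 RPM. Libraries 6OHDA 1 and 2 were thus close to the vehicle libraries, and the difference rests on 6OHDA 3, 4 and 5. Its largest barcode held 2652 of the 4720 reads in 6OHDA 5 (56.2%, 54.8 to 57.6), where 9 CAGA barcodes were colonies. All 15 CAGA colonies carried different barcodes.

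The other lines that entered through a single group were as uneven. GCAT had 0, 0, 1, 3, 0 and 0 colonies in vehicle, and 2, 0, 0, 0 and 10 in 6OHDA. TGAG had 0, 1, 3, 6, 0 and 3 in vehicle, and 3, 1, 1, 0 and 1 in 6OHDA. The remaining 6 members (GAAG, GCTA and TCCA, then CCAA, TCAG and TGAA) had log2 differences from 0.85 to 1.46, with edgeR adjusted p-values from 0.193 to 0.328.

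Read abundance was tested with edgeR over 101 lines with TMM scaling, in which all rare lines except GCAT could be fitted. The 101 lines held 85 besides the rare lines, many of them low-abundance identifiers that did not meet the rule. Of the 14 lines that passed the rule in both groups, 9 had a higher estimate in 6OHDA and 5 a lower one, against 54 of 101 lines (53.5%) higher. None passed an adjusted p of 0.05, as for all lines (0 of 101, 0%). At an unadjusted p under 0.05 there were 0 of the 14, against 33 of all 101 (32.7%). DESeq2 gave no p-value for TGAT. Among the rest of the 14 it called 0, with 0 at an unadjusted p under 0.05. It called 19 of the 101 lines fitted, not all of which had a p-value. On plain library totals, 14 of the 14 were higher, against 66 of all 101 lines (65.3%). The median of all lines then moved from 0.17 to 0.62 on the log2 scale, so the direction of several rare lines depended on the scaling. The median over the 14 lines was 0.41 with TMM scaling and 0.85 on plain totals.

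The read shares of AAGG and CAAC overlapped between the groups. AAGG stood at 689, 1771 and 2680 RPM (lowest, median, highest) in vehicle, and at 1833, 1648, 1435, 2346 and 2393 RPM in 6OHDA. CAAC stood at 877, 1368 and 2634 RPM in vehicle, and at 3339, 440, 1282, 2673 and 1492 RPM in 6OHDA. Their log2 differences were -0.28 (SE 0.37; edgeR adjusted p = 0.562) and -0.36 (SE 0.51; edgeR adjusted p = 0.574) with TMM scaling, and 0.16 and 0.17 on plain totals. CAAC was both highest and lowest in a 6OHDA library, so its groups overlapped throughout.

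The read shares of TGAC and ATGC overlapped as well. TGAC stood at 132, 1045 and 1875 RPM (lowest, median, highest) in vehicle, and at 650, 422, 803, 1284 and 2403 RPM in 6OHDA, with a log2 difference of -0.39 (SE 0.60; edgeR adjusted p = 0.613). ATGC stood at 152, 876 and 1140 RPM in vehicle, and at 1046, 1176, 589, 1547 and 587 RPM in 6OHDA, with a log2 difference of -0.08 (SE 0.51; edgeR adjusted p = 0.921). Both were higher in 6OHDA on plain totals, by 0.08 and 0.34.

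The CACT read share was low in most vehicle libraries and high in every 6OHDA library, and its difference did not pass the test. It stood at 36.7, 111, 619, 2894, 23.8 and 281 RPM in vehicle 1 to 6, and at 2358, 2948, 1092, 906 and 1036 RPM in 6OHDA 1 to 5. In vehicle, 5 libraries lay below every 6OHDA library, and vehicle 4 lay above 4 of the 5. The log2 difference was 1.14 (SE 1.07; edgeR adjusted p = 0.431). Without vehicle 4 it was 2.91 and passed the threshold, where 23 of 102 lines in all passed.

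A single clone carried much of that high vehicle value. The CACT barcode shown above held 23695 of 38811 reads in vehicle 4 (61.1%, 60.6 to 61.5), and it also held 8115 reads in 6OHDA 1 and 10044 in 6OHDA 2, which were the highest 6OHDA libraries for the line. It had 260 reads in vehicle 3, 62 in 6OHDA 3, 23 in 6OHDA 5, 3 in 6OHDA 4 and 1 in vehicle 2, and was listed in no other library. Over all libraries it made up 29.8% of the CACT reads. When the largest barcode of each line in each library was left out, the CACT log2 difference was 1.62 (SE 1.07; edgeR adjusted p = 0.275).

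ACAC, TGAT and TTGG had higher estimates in 6OHDA with wide errors. ACAC stood at 181, 535 and 1692 RPM (lowest, median, highest) in vehicle, and at 2571, 417, 1080, 807 and 2193 RPM in 6OHDA, with a log2 difference of 0.69 (SE 0.63; edgeR adjusted p = 0.425). TGAT had no reads in 3 vehicle libraries and 69.1 to 161 RPM in the other 3, and stood at 1006, 74.3, 39.7, 71.9 and 39.5 RPM in 6OHDA. Its log2 difference of 1.92 (SE 1.92; edgeR adjusted p = 0.448) rested on 6OHDA 1, and was -0.24 without that library. TTGG stood at 0.466, 42.3 and 186 RPM in vehicle, and at 254, 18.7, 46.1, 70.0 and 263 RPM in 6OHDA, with a log2 difference of 0.88 (SE 1.21; edgeR adjusted p = 0.574).

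GAAG was singled out after its values were seen. It stood at 255, 572 and 684 RPM (lowest, median, highest) in vehicle, and at 628, 785, 802, 957 and 1687 RPM in 6OHDA. In 4 of 5 6OHDA libraries it exceeded every vehicle library. The exact two-sided permutation test gave p = 0.0130, or 0.119 after adjustment over all lines tested. In that test 29 of all 101 lines had an unadjusted p under 0.05, 3 of them among the 14 lines that passed the rule in both groups. With TMM scaling, edgeR gave a log2 difference of 0.43 (SE 0.42, adjusted p = 0.437).

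Mean colony size was tested with limma on the mean log2 RPM of a line's colonies, over 31 lines with at least 5 colonies in at least 3 libraries per group. Of the rare lines, 10 were tested and 7 had too few colonies. In 2 of the 10, CACT and GCTA, the estimate was higher in 6OHDA, and in 8 it was lower, against 3 of 31 lines (9.68%) higher. Only AAGG among the rare lines passed an adjusted p of 0.05, against 11 of 31 (35.5%), and 3 had an unadjusted p under 0.05, against 18 of 31 (58.1%). A difference between these shares was not tested. The median log2 difference was -0.60 in the rare lines tested and -0.90 in all lines tested.

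AAGG colonies were smaller on average in 6OHDA libraries. Their geometric mean size was 14.8, 8.44, 6.25, 5.43, 14.6 and 10.9 RPM in vehicle 1 to 6, and 4.47, 6.24, 4.69, 6.36 and 5.10 RPM in 6OHDA 1 to 5. The groups overlapped only through vehicle 3 and 4, which had the most AAGG colonies of the vehicle libraries. The log2 difference was -0.82 (SE 0.30; limma adjusted p = 0.0485), and the call was lost without thinning, with a replicate block, and when any 1 of 8 libraries was left out, as given with the alternatives.

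CAAC and ATGC colonies had lower mean sizes in 6OHDA that did not pass. The geometric mean of CAAC was 53.4 ± 50.3 RPM (SD, n = 6) in vehicle and 20.4 ± 12.4 RPM (SD, n = 5) in 6OHDA, with a log2 difference of -1.20 (SE 0.49; limma adjusted p = 0.0597). Vehicle 5 was the highest, at 155 RPM from 6 colonies. With a minimum of 30 reads for a colony CAAC passed, at -0.96 (SE 0.35; limma adjusted p = 0.0370), where 10 of 28 lines in all passed. For ATGC the means were 8.17 ± 2.04 RPM (SD, n = 6) and 5.71 ± 1.03 RPM (SD, n = 5), with a log2 difference of -0.50 (SE 0.23; limma adjusted p = 0.0892).

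The estimate for CACT lay in the other direction and did not pass with at least 5 colonies in a library. Its geometric mean colony size was 3.26, 6.21, 5.63, 10 and 4.40 RPM in vehicle 1 to 4 and 6, and vehicle 5 was left out with 4 colonies. In 6OHDA 1 to 5 it was 9.36, 7.54, 8.72, 15.2 and 8.83 RPM. Of the 5 vehicle libraries, 4 lay below every 6OHDA library, and vehicle 4 lay above 4 of them. The log2 difference was 0.81 (SE 0.32; limma adjusted p = 0.0597). With libraries of 3 or more colonies included it was 0.87 (SE 0.31; limma adjusted p = 0.0416), a call, and AAGG then had an adjusted p of 0.0507. Of all lines, 11 of 32 then passed. The CACT difference was -0.04 when barcodes with 2 or more reads were counted as colonies, so the direction depended on the minimum size.

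TGAC and ACAC did not pass either. The log2 difference was -0.71 (SE 0.45; limma adjusted p = 0.190) for TGAC, tested in 4 vehicle libraries, and -0.35 (SE 0.29; limma adjusted p = 0.305) for ACAC, tested in 5. The other members tested, GAAG, GCTA and TCCA with CCAA, ran from -0.81 to 0.44, with limma adjusted p-values from 0.145 to 0.530.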

How the data were processed

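Barcodes were sequenced from lung DNA of 11 samples. Each deposited table gives, per the file headers, the read count of every barcode cluster of a sample. The clustering tool is not given in the sources used here. Per the labels, the authors amplified the cassette from 32 µg of DNA in 27 PCR cycles. Groups and numbers come from the sample titles. Of 135364 listings, 4 with an undetermined base were dropped. Libraries were thinned to 6436469 reads, and barcodes with at least 10 thinned reads were counted as colonies.

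Colony numbers were tested with edgeR 4.0.16 at equal library sizes (lines that reached 5 colonies in a sample), and reads with edgeR and TMM scaling (lines with 10 or more reads in most samples of a group). Mean colony size was tested with limma 3.58.1. P-values were adjusted over all lines tested by the Benjamini-Hochberg method, with a threshold of 0.05. For edgeR, SE is the log2 change over the root of its F statistic. DESeq2 1.42.0 and an exact permutation test were alternatives, run in R 4.3.3 and in Python 3.11.15 (scipy 1.17.1, pandas 2.3.3, numpy 2.4.6). Scripts were tested on simulated data.

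The members, lists and tests were chosen with earlier results of these data known. Lines described by name with tests were the 6 with the most reads, any past the threshold, the 2 with the largest and 2 with the smallest change in colony number, and the line with the highest share of reads in 1 barcode. Their values are given per sample, or as lowest, median and highest in vehicle. GAAG and lines that passed the rule in 1 group were added for description. Sequences are the largest barcode of each named line and the 5 found as colonies in the most libraries.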

Additional observations from a re-analysis of the deposited data

Results flagged for a closer look

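Within groups of 5 or 6 libraries, 4 of 47 sets of values had a library that stood far from the others by Dixon's criterion, where chance gives about 1 in 20, or 2.35 of 47. For CACT, vehicle 4 stood at 2894 RPM and the other vehicle libraries at 23.8 to 619 RPM. For ATGC, 6OHDA 1 had 112 colonies and the other 6OHDA libraries 70.0 to 81.0. For TGAT, 6OHDA 1 stood at 1006 RPM and the other 6OHDA libraries at 39.5 to 74.3 RPM. The largest barcode held 15.3% of the rare-line reads in 6OHDA 2 and 3.35 to 5.16% in the others.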

How the results depend on the processing

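The alternatives changed few of the counts for colony number and most of those for colony size. For colony number, the rare lines past an adjusted p of 0.05 went from 0 to 1 (CAGA) with a minimum of 2 reads or with no filter. CAGA was a member through 6OHDA libraries alone, so its calls restate its selection. All lines past it went from 0 to 1 with DESeq2, TMM scaling or a minimum of 2 reads, and to 2 with no filter. For reads, 1 rare line (again CAGA, and none of the 14 that passed the rule in both groups) passed with DESeq2, with scaling by the reads of the line left out, and without TMM scaling, and all lines passing were then 19, 5 and 9. For colony size, 0 rare lines passed with the log2 of the mean size, with barcodes 1 base apart merged, or without thinning. All lines passing fell from 11 to 0 with the first and the last of these, and were 8 of 31 with merging. With a minimum of 2 reads, 1 rare line was higher in 6OHDA. Reversed estimates for colony number were AAGG -0.07, ATGC -0.40 and TGAT -0.32 with TMM scaling. For reads, with TMM left out, with scaling by the left-out line and by permutation, they were AAGG 0.16, 0.19 and 0.26, CAAC 0.17, 0.38 and 0.00, and ATGC 0.34, 0.46 and 0.49. TGAC was 0.08, 0.13 and 0.20, and 0.49 without the largest barcode; ATGC was 0.09 with no filter and 0.08 without shared 16-base ends. The rare line called for size was CACT (0.87) in place of AAGG with 3 or more colonies, and CAAC (-0.96) in its place with a minimum of 30 reads. All lines called were then 11 of 32 and 10 of 28. For size, CACT was -0.04 with a minimum of 2 reads and ACAC 0.22 with a minimum of 30. The cause of these changes was not tested. The AAGG size difference, with the call lost, was -0.73, -0.95, -0.81, -1.22, -0.82 or -0.77 over the alternatives other than leaving out a library.

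Leaving out each library in turn gave 0 to 1 rare lines and 0 to 5 lines in all past the threshold for colony number, and 0 to 2 and 0 to 23 for reads. The rare line for colony number was CAGA, without 6OHDA 2, where 2 of 38 lines in all passed. CAGA was also the rare line for reads without 6OHDA 1 (2 of 100 lines in all) or 6OHDA 2 (13 of 100). Its calls restate its selection. None of the 14 lines that passed the rule in both groups was called for colony number. For size, leaving out each library gave 0 to 5 and 0 to 21, with 1 to 2 rare lines higher. The most calls came without vehicle 4: 5 of 37 lines for colony number (no rare line), 23 of 102 for reads (CACT and CAGA among 16 rare lines), and 21 of 29 for size (5 of 8 rare lines: AAGG and CAAC with CACT, and ATGC with TCCA). For size, AAGG and CAAC were called without vehicle 3, among 17 of 29 lines, and these and TCCA without 6OHDA 4, among 17 of 30. Leaving out any of the other 8 libraries gave 0 rare lines. Of these 8, leaving out 6OHDA 2 gave 10 of 30 lines in all, and leaving out any other gave 0. The log2 read difference ran from -0.78 to 0.02 for CAAC (above 0 without vehicle 5), from -0.16 to 0.23 for ATGC (above 0 without vehicle 1, vehicle 2, 6OHDA 3 or 6OHDA 5) and from -0.24 (without 6OHDA 1) to 3.02 for TGAT.

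With the sample number as a replicate block, 0 rare lines passed for colony number, 0 for reads and 0 for size, and 0 of all lines for size. Correlations between the deviations of samples of the same number ran from -0.2478 to 0.2484 over 101 lines. They cannot show whether samples of the same number were handled together, and whether the numbers pair samples was not settled. Depth limits the smallest colonies: 10 thinned reads equal 1.55 RPM, and 49.0% of rare-line colonies held fewer than 40 reads.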
